A study of Mus musculus with 6 samples.

Results

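The matrix metalloproteinases (MMPs), the ADAM and ADAMTS proteases and the tissue inhibitors of metalloproteinases (TIMPs) were followed in the murine melanoma line D4M-3A with and without a CRISPR-Cas9 construct against Nfkbiz. Nfkbiz encodes IκBζ, a nuclear co-activator that works with NF-κB and STAT transcription factors. The gene families were chosen with earlier results of these data known, and their genes were then taken by name. Every listed gene called Mmp, Adam, Adamts or Timp with a number and at most 1 further letter was included. The rule gave 80 of the 43043 genes of the tables. Of these, 42 had at least 10 reads in 3 or more samples and were tested, among 14533 genes tested in all. They were 15 of 23 Mmp genes, 12 of 34 Adam genes, 12 of 19 Adamts genes and 3 of 4 Timp genes. The 38 genes left out included 18 with no read in any sample, and none of them exceeded 14 reads. Mmp17, with 8 to 24 reads per sample, and Adam32, with 14 to 22, lay just inside this limit, while Adam4 with 7 to 14, Mmp24 with 0 to 14 and Mmp23 with 5 to 13 reads lay just outside it.

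The comparison was made between 3 control samples (Ctrl), which had received an empty CRISPR-Cas9 construct by lentivirus, and 3 Nfkbiz knockout samples (Nfkbiz KO), which had received a construct targeting Nfkbiz. For its melanoma cells the study describes lentiviral transduction followed by puromycin selection, and it does not say whether the cells were a clone or a pool. The samples are described as independent experiments, and no batch or date is given for them. The comparison addresses how the transcriptome differs between control cells and cells with a construct meant to remove their constitutive IκBζ. In this design, loss of IκBζ cannot be told apart from other differences between the cells of the groups.

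Samples had between 32219900 and 44927203 reads on genes, so that a count of 0 allows up to 0.0668 to 0.0931 CPM (reads scaled to the library size), a limit that covers counting error only. Nfkbiz itself had 69.1, 75.2 and 63.4 TPM (transcript level scaled to length and depth) in Ctrl replicates 1, 2 and 3 and 34.8, 34.7 and 35.1 TPM in Nfkbiz KO replicates 1, 2 and 3. Its transcript was therefore lower but present in every Nfkbiz KO sample, and reads do not tell whether the remaining transcript is edited. The study checked the depletion of IκBζ protein in its D4M-3A knockout cells by immunoblot, which these reads do not measure. Of the melanocyte markers, Sox10 and Tyr had no read in any sample and Mitf had 0.690 to 1.21 TPM, with the 7 markers summing to 1.11 to 1.74 TPM in Ctrl and 1.27 to 1.68 TPM in Nfkbiz KO. The defining genes of pigment cells were thus absent or close to 0 in both groups. The 7 fibroblast markers summed to 622 to 707 TPM in Ctrl and 524 to 564 TPM in Nfkbiz KO, mostly from Col1a1 and Col1a2. Of the 5 tested, 3 passed as lower in Nfkbiz KO, Col1a1, Col1a2 and Dcn, where 18.2% of all genes were lower. Pdgfra and Pdgfrb did not pass the test. Lum had at most 1 read and Thy1 at most 4 reads in any sample, and neither was tested. Leukocyte, endothelial and keratinocyte markers stayed at or below 4.05 TPM as sums in every sample, with Ptprc, Cd3e, Tie1 and Epcam at or near 0, and of their 4 tested genes Cdh5 passed as higher (1.21 to 1.83 TPM in Nfkbiz KO), while Cd68, Pecam1 and Krt10 did not pass. In RNA of whole cultures, fewer cells of a kind and less RNA per cell cannot be told apart, and the part of these markers in the results was not tested.

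MMPs cut collagens, proteoglycans and other matrix proteins as well as cytokines and growth factors, and are made as inactive precursors whose prodomain must be removed. Most are secreted, whereas the membrane-type MMPs stay at the cell surface. ADAMs are membrane proteins that release the outer parts of other membrane proteins, and ADAMTS proteases are secreted and act on proteoglycans, procollagens and related matrix components. TIMPs bind to the active site of these enzymes and block them. In melanoma, these proteases are known for their part in invasion and in the remodelling of the tissue around the tumor.

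Metalloproteinase genes changed in both directions when Nfkbiz was knocked out. An adjusted p of 0.05 or less was reached by 26 of the 42 genes tested (61.9%), against 36.3% of all genes tested (edgeR quasi-likelihood test, Benjamini-Hochberg adjustment over all 14533 genes). Of the 26, 12 were higher in Nfkbiz KO, where the share among all genes was 18.0%, and 14 were lower, where it was 18.2%. The balance between the directions depended on the scale, and limma on log2(TPM + 1) called 12 higher and 9 lower. A fold change of at least 1.5 was also reached by 13 of them, 7 higher and 6 lower, which is 31.0% of those tested against 11.5% of all genes. The thresholds of the study, which ask for more than a 2-fold change, for 0.05 or less as adjusted p and for a difference beyond 4, taken here in TPM, left only Mmp19, against 1.78% of all genes, and without Ctrl replicate 1 also Mmp3, which then made 2. The median log2 fold change of the 42 genes was 0.03, against -0.02 for all genes, while the median of its absolute size was 0.32 against 0.20. In 28 of the 42 genes (66.7%) the CPM of the groups did not overlap, against 48.2% of all genes tested. These 28 hold all 26 genes that passed, plus Mmp17 and Mmp28, and for each of them the exact two-sided permutation test gave p = 0.1, the smallest that 3 samples against 3 allow.

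**Figure D1:**
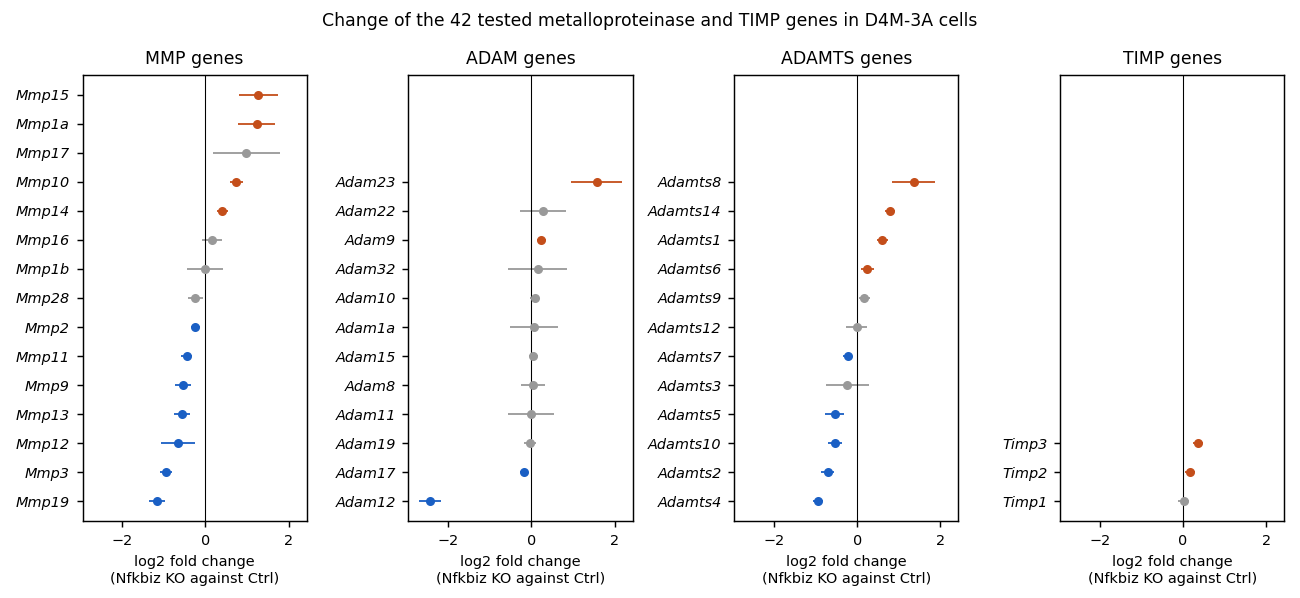
Log2 fold change of each of the 42 tested genes in Nfkbiz KO against Ctrl from edgeR, by family, with 95% confidence intervals computed from the SE. Orange points passed the test as higher, blue points as lower and grey points did not pass. Changes range from -2.44 for Adam12 to 1.57 for Adam23, and within the MMP, ADAM and ADAMTS families both directions occur.

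**Figure D2:**
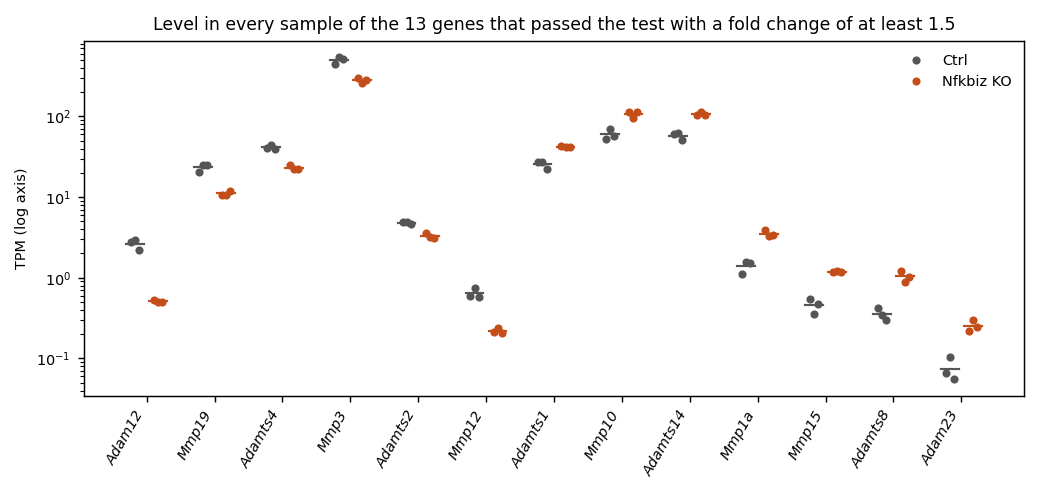
TPM on a log axis of the 13 genes that passed the test with a fold change of at least 1.5, in 3 Ctrl (grey) and 3 Nfkbiz KO samples (orange), with the mean of each group as a line. The levels span from 0.0745 TPM on average for Adam23 to 503 TPM for Mmp3, both in Ctrl, and the groups are apart for every gene.

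Among the secreted MMPs, the related genes Mmp3 and Mmp10 moved apart, the former lower and the latter higher in Nfkbiz KO. Both encode stromelysins, which cut proteoglycans, laminin and several collagens and can activate other MMP precursors. Mmp3 (chromosome 9 of GRCm39, 7445822 to 7455975, plus strand) had 448, 548 and 513 TPM in Ctrl and 298, 257 and 284 TPM in Nfkbiz KO. Every Nfkbiz KO sample was below every Ctrl sample. The log2 fold change was -0.94 (SE 0.075, edgeR adjusted p = 8.9e-07), and -1.02 without Ctrl replicate 1. Mmp3 is on a list of IκBζ-regulated genes that the study drew partly from these samples, so its direction here is not independent of that list. Mmp10 (chromosome 9, 7502353 to 7510241, plus strand) had 53.2, 69.8 and 57.9 TPM in Ctrl and 113, 96.8 and 112 TPM in Nfkbiz KO. All 3 Nfkbiz KO values were above the highest Ctrl value, a log2 fold change of 0.74 (SE 0.081, edgeR adjusted p = 1.5e-05). Within a sample, the ratio of Mmp10 to Mmp3 TPM averaged 0.120 ± 0.00737 over the Ctrl samples and 0.383 ± 0.0108 over those of Nfkbiz KO (SD, n = 3 each, exact two-sided permutation p = 0.1, the smallest possible). That p was fixed by the opposite shifts of both genes in every Nfkbiz KO sample and adds no support. This ratio and the others below were chosen after the values were seen. Because Mmp3 was the more abundant, the 3 stromelysins together, with Mmp11, made up 536 to 653 TPM in Ctrl and 384 to 438 TPM in Nfkbiz KO. Mmp11, a stromelysin with little activity on matrix proteins, fell to 27.9 ± 1.42 TPM from 35.5 ± 1.10 TPM (SD, n = 3 each). Gene reads gave it a log2 fold change of -0.45 (SE 0.070, edgeR adjusted p = 0.00031).

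Mmp3 and Mmp10 lie in a cluster of 10 MMP genes on chromosome 9, from 7272514 to 7699587 of GRCm39, a stretch of 427 kb with no other protein-coding gene in the annotation. Of these, 6 were tested and 5 passed (83.3%, against 36.3% of all genes), Mmp13, Mmp12 and Mmp3 as lower and Mmp1a and Mmp10 as higher. The remaining one, Mmp1b, had a log2 fold change of -0.01 with a 95% confidence interval from -0.44 to 0.41. Mmp8, Mmp20 and Mmp7 had no read and Mmp27 no more than 1 read in any sample. The higher and lower genes are neighbours, since the start of Mmp1a is 18.3 kb from that of Mmp3 and 38.2 kb from that of Mmp10. Summed over the cluster, transcript levels were 540 to 665 TPM in Ctrl and 383 to 447 TPM in Nfkbiz KO, which Mmp3 dominates.

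**Figure D3:**
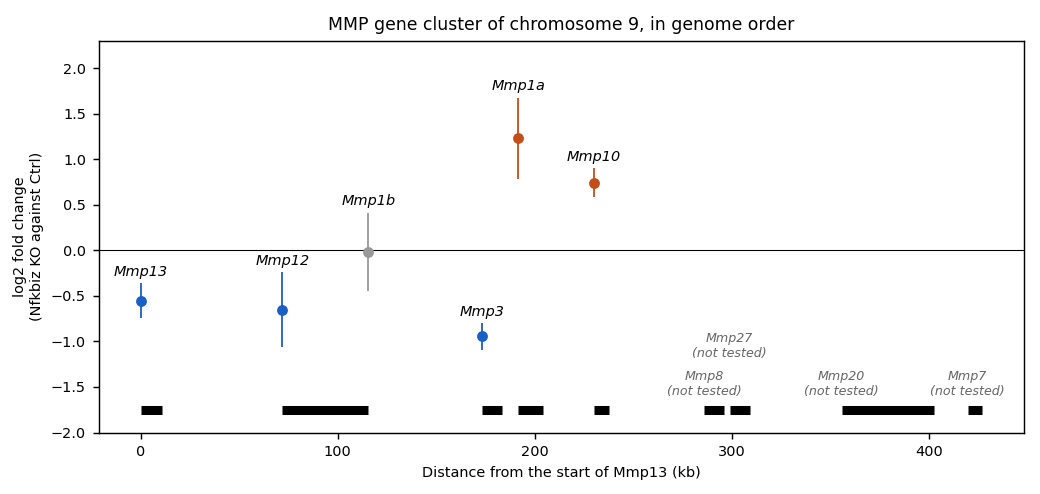
Log2 fold change, Nfkbiz KO against Ctrl, of the tested genes of the chromosome 9 cluster, with 95% confidence intervals, plotted at each gene's start as the distance from the start of Mmp13 in kb. Black bars are the genes' extents, orange points passed as higher, blue as lower, and the grey point did not pass. Mmp3 at -0.94 stands beside Mmp1a at 1.23, with Mmp10 at 0.74 the next gene after it.

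Because these neighbours moved in opposite directions, their promoters are shown, from 250 bases before to 50 bases after the start site, as RefSeq gives them, 5′ to 3′ on the plus strand. Capitals mark the AP-1 motif TGANTCA, the binding sequence of Fos and Jun proteins that MMP promoters are known for. Each sequence was found without mismatch on chromosome 9 of GRCm39, at chr9:7272264-7272563 for Mmp13, chr9:7445572-7445871 for Mmp3, chr9:7463891-7464190 for Mmp1a and chr9:7502093-7502392 for Mmp10.
Mmp13, lower: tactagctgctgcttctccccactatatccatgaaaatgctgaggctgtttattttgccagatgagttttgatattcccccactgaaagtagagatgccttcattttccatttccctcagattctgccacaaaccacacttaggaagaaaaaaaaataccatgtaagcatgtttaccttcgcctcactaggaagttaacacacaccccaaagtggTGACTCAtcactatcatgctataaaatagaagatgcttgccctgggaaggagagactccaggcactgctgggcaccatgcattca
Mmp3, lower: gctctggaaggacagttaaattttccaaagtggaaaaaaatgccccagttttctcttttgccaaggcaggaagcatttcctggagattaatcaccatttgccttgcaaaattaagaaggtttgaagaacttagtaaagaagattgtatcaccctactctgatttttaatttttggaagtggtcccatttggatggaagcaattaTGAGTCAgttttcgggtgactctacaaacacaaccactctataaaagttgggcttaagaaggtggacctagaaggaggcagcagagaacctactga
Mmp1a, higher: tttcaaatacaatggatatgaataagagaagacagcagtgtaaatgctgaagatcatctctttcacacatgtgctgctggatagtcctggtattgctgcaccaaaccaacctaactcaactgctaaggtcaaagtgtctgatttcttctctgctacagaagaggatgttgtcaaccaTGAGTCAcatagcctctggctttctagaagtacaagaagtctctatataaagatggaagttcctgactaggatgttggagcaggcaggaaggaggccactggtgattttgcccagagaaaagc
Mmp10, higher: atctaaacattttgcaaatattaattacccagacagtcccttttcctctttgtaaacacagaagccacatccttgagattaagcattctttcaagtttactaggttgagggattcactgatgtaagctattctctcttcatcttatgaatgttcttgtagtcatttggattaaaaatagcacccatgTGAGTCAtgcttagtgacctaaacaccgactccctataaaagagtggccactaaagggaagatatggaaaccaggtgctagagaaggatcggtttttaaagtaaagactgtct

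The motif lies 35 to 29 bases before the start site in Mmp13, 46 to 40 in Mmp3, 73 to 67 in Mmp1a and 63 to 57 in Mmp10, so genes of both directions carry it. The RefSeq table held promoters of 27 of the 42 tested genes. AP-1 motifs were present in 7 of them, the 6 tested genes of the cluster and Adam19, whereas 7.81% of the 32851 promoters in the table hold one. The motif TTCNNNGAA, a binding sequence of STAT factors, was present in 0 of the 27 and in 8.30% of all promoters. An NF-κB motif was present only in Adam19 among the 27, and in 4.51% of all promoters. Both strands were searched, and a match or its absence within these bases is a description and not a binding site.

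The collagenases, which cut intact fibrillar collagen, did not move as a group. Mmp13 had 34.2, 42.8 and 33.8 TPM in Ctrl and 29.2, 22.9 and 28.9 TPM in Nfkbiz KO. The groups did not overlap, with a log2 fold change of -0.56 (SE 0.098, edgeR adjusted p = 0.00078), although limma on log2(TPM + 1) did not call it (-0.44, adjusted p = 0.060). Mmp1a, a mouse counterpart of human interstitial collagenase, had 1.11, 1.56 and 1.504 TPM in Ctrl and 3.87, 3.31 and 3.38 TPM in Nfkbiz KO. All Nfkbiz KO values were more than 2 times the highest Ctrl value, with a log2 fold change of 1.23 (SE 0.227, edgeR adjusted p = 0.0011), on 23 to 41 reads in Ctrl and 72 to 88 in Nfkbiz KO. The related Mmp1b had 2.46 ± 0.223 TPM on average in Ctrl, against 2.55 ± 0.997 TPM under knockout (SD, n = 3 each). Mmp12, the macrophage elastase, had 0.591, 0.755 and 0.575 TPM in Ctrl and 0.215, 0.236 and 0.208 TPM in Nfkbiz KO. Nfkbiz KO samples were lower throughout, but the size differed between scales. Gene reads, 82 to 99 in Ctrl and 52 to 61 in Nfkbiz KO, gave a log2 fold change of -0.65 (SE 0.210, edgeR adjusted p = 0.028), whereas the exon-based TPM gave -0.43 as log2(TPM + 1) and -1.20 as log2(TPM + 0.1) (limma adjusted p = 0.0031 and 0.0021). Mmp12 shares exon bases with Mmp1b on the other strand, and reads were counted without regard to strand. The gene-read call was lost when Ctrl replicate 1 or 2, or Nfkbiz KO replicate 2 or 3, was left out (largest edgeR adjusted p = 0.12).

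Of the gelatinases, which digest denatured collagen and basement membrane collagen, both passed as lower, where 18.2% of all genes were lower. Mmp2 was among the most abundant of all tested genes, with 333, 325 and 302 TPM in Ctrl and 299, 300 and 273 TPM in Nfkbiz KO. The lowest Ctrl and the highest Nfkbiz KO value nearly touched. The log2 fold change was -0.24 (SE 0.056, edgeR adjusted p = 0.0057), and limma on log2(TPM + 1) did not call it (-0.14, adjusted p = 0.12). Of the Mmp2 reads, 75.3% mapped to a single place. Mmp9 had 17.7, 15.1 and 16.5 TPM in Ctrl and 13.7, 11.7 and 11.6 TPM in Nfkbiz KO. All Nfkbiz KO samples were below Ctrl, with a log2 fold change of -0.53 (SE 0.099, edgeR adjusted p = 0.0012).

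Of the membrane-type MMPs, 2 of the 4 tested passed, both as higher, where 18.0% of all genes were higher, while Mmp24 and Mmp25 had too few reads. Mmp14, which encodes MT1-MMP, a collagenase of the cell surface that also activates the MMP2 precursor together with TIMP2, had 163, 163 and 157 TPM in Ctrl and 238, 241 and 232 TPM in Nfkbiz KO. The groups were far apart relative to their spread. Its log2 fold change was 0.41 (SE 0.066, edgeR adjusted p = 0.00043) from gene reads and 0.56 from log2(TPM + 1) with limma (adjusted p = 0.00034). Mmp14 (chromosome 14, 54668878 to 54682821, plus strand) supplied nearly all of the membrane-type transcript, which summed to 162 to 172 TPM in Ctrl and 241 to 250 TPM in Nfkbiz KO. The ratio of Mmp14 to Mmp2 TPM was 0.503 ± 0.0151 in Ctrl, against 0.816 ± 0.0274 under knockout (SD, n = 3 each, exact two-sided permutation p = 0.1, the smallest possible). Since Mmp14 was higher and Mmp2 lower in every Nfkbiz KO sample, this p was fixed and adds no support. The ratio of Mmp14 to Timp2 moved less, from 0.328 ± 0.0132 to 0.401 ± 0.00425 (SD, n = 3 each). Mmp15, which encodes MT2-MMP, was low, with 0.540, 0.360 and 0.477 TPM in Ctrl and 1.18, 1.20 and 1.19 TPM in Nfkbiz KO. All Nfkbiz KO samples were more than 2 times the highest Ctrl sample, with a log2 fold change of 1.28 (SE 0.243, edgeR adjusted p = 0.0014). Mmp16 had a log2 fold change of 0.16 (95% confidence interval -0.09 to 0.41). Mmp17 had one of 0.99 on at most 24 reads per sample (edgeR adjusted p = 0.083).

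Mmp19 carried the largest decrease of gene reads among the MMPs. It encodes a secreted MMP that acts on basement membrane and matrix proteins. Mmp19 (chromosome 10, 128626773 to 128636695, plus strand) had 20.6, 25.1 and 24.8 TPM in Ctrl and 10.7, 10.7 and 11.8 TPM in Nfkbiz KO. The highest Nfkbiz KO sample was well below the lowest Ctrl sample. The log2 fold change was -1.17 (SE 0.096, edgeR adjusted p = 1.2e-06), and it ranged from -1.25 to -1.08 when single samples were left out. Of its reads, 79.9% mapped to a single place, and it shares exon bases with Tmem198b on the other strand, whose own log2 fold change was -0.32 (SE 0.064, edgeR adjusted p = 0.0018). Mmp28, a secreted MMP of epithelia, had a log2 fold change of -0.24 and did not pass (edgeR adjusted p = 0.057). Summed over all 23 MMP genes, levels were 1127 to 1249 TPM in Ctrl and 995 to 1058 TPM in Nfkbiz KO.

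Of the 4 inhibitor genes, 2 of the 3 tested passed, both as higher, where 18.0% of all genes were higher. Timp1, which inhibits most secreted MMPs, was the most highly expressed of the 80 genes, with 1013, 1136 and 1168 TPM in Ctrl and 1187, 1175 and 1243 TPM in Nfkbiz KO. In CPM its groups overlapped, and the log2 fold change of 0.02 (95% confidence interval -0.12 to 0.15, edgeR adjusted p = 0.87) did not pass. Timp2 had 516, 501 and 459 TPM in Ctrl and 597, 606 and 571 TPM in Nfkbiz KO. The groups did not overlap, but the log2 fold change was only 0.16 (SE 0.057, edgeR adjusted p = 0.040), and the call was lost when Ctrl replicate 2 or any one Nfkbiz KO sample was left out (largest edgeR adjusted p = 0.17). Timp3, which binds to the matrix and also inhibits ADAM17 and aggrecanases, had 98.0, 103 and 85.0 TPM in Ctrl and 131, 132 and 129 TPM in Nfkbiz KO. All Nfkbiz KO samples were above all Ctrl samples, with a log2 fold change of 0.36 (SE 0.056, edgeR adjusted p = 0.00034). Of the Timp3 reads, 61.4% mapped to a single place, and Timp3 overlaps Syn3, which had at most 70 reads in a sample. Timp4 had no read. The 3 inhibitors together made up 1627 to 1740 TPM in Ctrl and 1914 to 1943 TPM in Nfkbiz KO.

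In the ADAMTS family, 9 of 12 tested genes passed (75.0%, against 36.3% of all genes), 4 higher and 5 lower, and related enzymes again moved in opposite directions. Among those that cut the proteoglycans versican and aggrecan, Adamts1 and Adamts8 were higher and Adamts4 and Adamts5 lower. Adamts4 (chromosome 1, 171077986 to 171089841, plus strand) had 40.8, 43.8 and 39.8 TPM in Ctrl and 24.7, 22.3 and 22.4 TPM in Nfkbiz KO. The groups were clearly apart, with a log2 fold change of -0.95 (SE 0.059, edgeR adjusted p = 1.1e-07). Adamts1 (chromosome 16, 85590579 to 85600009, minus strand) had 27.3, 27.4 and 22.6 TPM in Ctrl and 42.6, 41.3 and 41.7 TPM in Nfkbiz KO. All Nfkbiz KO samples were higher, with a log2 fold change of 0.61 (SE 0.063, edgeR adjusted p = 1.1e-05). Adamts4 was thus the more abundant of the pair in Ctrl and Adamts1 in Nfkbiz KO, with a ratio of Adamts1 to Adamts4 TPM of 0.621 ± 0.0522 and 1.81 ± 0.0774 (SD, n = 3 each, exact two-sided permutation p = 0.1, the smallest possible). Here too, the opposite shifts of both genes fixed the p, which adds no support. Adamts5 starts 98.7 kb from Adamts1 on the same strand and fell to 1.74 ± 0.104 TPM from 2.37 ± 0.365 TPM (SD, n = 3 each). Its log2 fold change from gene reads was -0.54 (SE 0.119, edgeR adjusted p = 0.0036), and limma on log2(TPM + 1) did not call it (-0.29, adjusted p = 0.065). Adamts8 had 0.421, 0.341 and 0.295 TPM in Ctrl and 1.21, 0.897 and 1.01 TPM in Nfkbiz KO. Its Nfkbiz KO values were more than 2 times the highest Ctrl value, with a log2 fold change of 1.36 (SE 0.267, edgeR adjusted p = 0.0017) on 20 reads in each Ctrl sample. Adamts9, the last tested enzyme of this role, had a log2 fold change of 0.18 (edgeR adjusted p = 0.068). The summed level of the role was 73.1 to 85.5 TPM in Ctrl and 78.2 to 82.4 TPM in Nfkbiz KO, so that the groups overlapped.

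The procollagen N-proteinases, which remove the amino-terminal propeptide of fibrillar procollagens, also moved in opposite directions. Adamts14 (chromosome 10, 61032891 to 61109232, minus strand) had 60.1, 62.3 and 50.4 TPM in Ctrl and 105, 113 and 104 TPM in Nfkbiz KO. The Nfkbiz KO samples were well above the Ctrl samples, with a log2 fold change of 0.78 (SE 0.063, edgeR adjusted p = 1.0e-06). Adamts2 had 4.98, 4.95 and 4.596 TPM in Ctrl and 3.54, 3.17 and 3.13 TPM in Nfkbiz KO. It was lower in every Nfkbiz KO sample, with a log2 fold change of -0.71 (SE 0.081, edgeR adjusted p = 2.4e-05). Adamts14 was the more abundant in both groups, at 11.9 ± 0.831 times the TPM of Adamts2 in Ctrl and 32.9 ± 2.98 times in Nfkbiz KO (SD, n = 3 each). Adamts3 had 29 to 53 reads per sample but was listed at 0 TPM in all 6 samples, and its log2 fold change of -0.23 did not pass. Of the other ADAMTS genes, Adamts7, which cuts cartilage oligomeric matrix protein, had a log2 fold change of -0.23, Adamts10, a protease of microfibrils, one of -0.54, and Adamts6 one of 0.24, and all passed. The calls of Adamts7 and Adamts6 were not made by limma on log2(TPM + 1) (adjusted p = 0.22 and 0.090). Adamts12 did not pass, with -0.02.

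The ADAM family had the lowest share of calls of the 4 families, with 4 of 12 genes tested (33.3%), near the 36.3% of all genes. The largest change of any metalloproteinase gene was nevertheless that of Adam12, which encodes a protease and binding partner of integrins and syndecans that is made in mesenchymal cells and tumors. Adam12 (chromosome 7, 133484928 to 133833875, minus strand) had 2.74, 2.93 and 2.22 TPM in Ctrl and 0.537, 0.502 and 0.494 TPM in Nfkbiz KO. Each Nfkbiz KO sample was far below each Ctrl sample, a 5.42-fold decrease (log2 fold change -2.44, SE 0.135, edgeR adjusted p = 4.6e-08) that ranged from -2.53 to -2.38 on the log2 scale when single samples were left out. Because of its low level, it missed the difference of 4 TPM in the thresholds of the study. Adam23, a neuronal ADAM without protease activity, had 0.0651, 0.103 and 0.0549 TPM in Ctrl and 0.217, 0.296 and 0.248 TPM in Nfkbiz KO. The Nfkbiz KO samples were higher, with a log2 fold change of 1.57 (SE 0.315, edgeR adjusted p = 0.0020), on 13 to 26 reads in Ctrl and 44 to 64 in Nfkbiz KO. Adam9, the most abundant ADAM, rose to 152 ± 4.50 TPM from 120 ± 12.7 TPM (SD, n = 3 each). Gene reads gave it a log2 fold change of 0.24 (SE 0.056, edgeR adjusted p = 0.0049).

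The sheddases Adam10 and Adam17, which release the outer parts of Notch, of growth factor precursors and of cytokine receptors and their ligands, differed little between the groups. Adam10 had 112, 125 and 105 TPM in Ctrl and 128, 130 and 129 TPM in Nfkbiz KO. In CPM its groups overlapped, and the log2 fold change of 0.08 (95% confidence interval -0.02 to 0.19, edgeR adjusted p = 0.24) did not pass. Adam17 had 44.8, 48.0 and 44.6 TPM in Ctrl and 42.5, 43.8 and 43.6 TPM in Nfkbiz KO. It was slightly lower in Nfkbiz KO, with a log2 fold change of -0.18 (SE 0.052, edgeR adjusted p = 0.017), a call that was lost without Nfkbiz KO replicate 1 or 2 (largest edgeR adjusted p = 0.099) and on the log2(TPM + 1) scale with limma (adjusted p = 0.19). Adam8, Adam15 and Adam19, which are also active proteases, had log2 fold changes of 0.04, 0.05 and -0.03 and did not pass. The same held for Adam1a, Adam11, Adam22 and Adam32, each with 74 reads or fewer in every sample.

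Proteins that act on or with these proteases are described from lists of 45 genes, of which 24 were tested and 14 passed (58.3%, against 36.3% of all genes), 5 higher and 9 lower. The most marked among the partners of the sheddases was Tspan15, a tetraspanin that binds ADAM10 and directs it to particular substrates. Tspan15 had 2.65, 2.60 and 2.23 TPM in Ctrl and 7.57, 8.31 and 7.17 TPM in Nfkbiz KO. All Nfkbiz KO samples were more than 2 times any Ctrl sample, a 2.94-fold increase (log2 fold change 1.56, SE 0.093, edgeR adjusted p = 8.6e-08), and the ratio of Tspan15 to Adam10 TPM was 0.0219 ± 0.00154 in Ctrl, against 0.0594 ± 0.00419 under knockout (SD, n = 3 each). Tspan5, another ADAM10 tetraspanin, rose to 23.2 ± 0.428 TPM from 13.7 ± 0.713 TPM (SD, n = 3 each, log2 fold change 0.59, SE 0.067, edgeR adjusted p = 2.2e-05). Tspan17 passed as lower (-0.32), but limma on log2(TPM + 1) did not call it (adjusted p = 0.19) and the call was lost in at least 1 of the fits with a sample left out (largest edgeR adjusted p = 0.13). Tspan14 did not pass (-0.14). The iRhom genes Rhbdf1 and Rhbdf2, whose products carry ADAM17 to the cell surface, passed as lower, with log2 fold changes of -0.23 and -0.30 (SE 0.071 and 0.063, edgeR adjusted p = 0.023 and 0.0027). Neither was called by limma on log2(TPM + 1) (adjusted p = 0.33 and 0.11). Frmd8, which stabilises the same complex, did not pass.

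**Figure D4:**
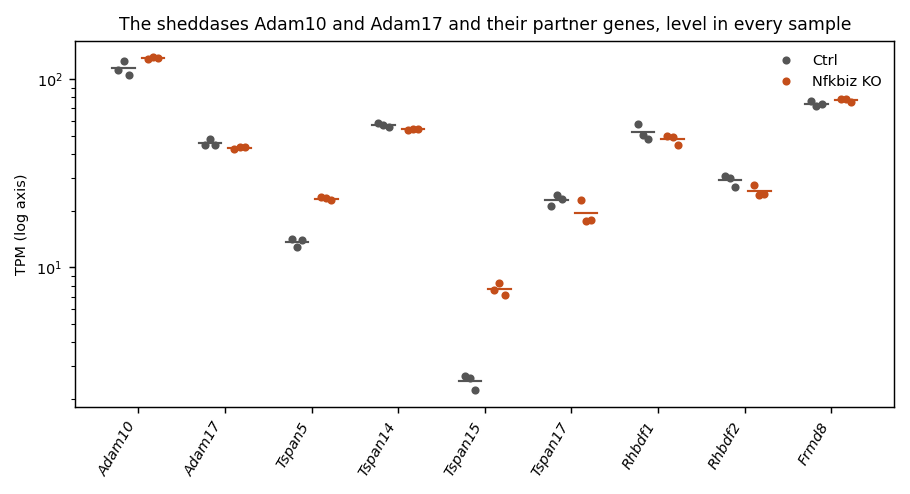
TPM on a log axis of the sheddase genes Adam10 and Adam17 and of their tested partner genes in 3 Ctrl (grey) and 3 Nfkbiz KO samples (orange), with the mean of each group as a line. Tspan15, from 2.49 to 7.68 TPM on average, and Tspan5, from 13.7 to 23.2 TPM, stand apart between the groups, whereas Adam10 and Adam17 differ by little.

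Among the inhibitors and inducers outside the TIMPs, 4 of 5 tested passed and all 4 were lower, where 18.2% of all genes were lower. Lcn2, whose product binds MMP9 and protects it from degradation, had 197, 237 and 238 TPM in Ctrl and 15.7, 14.6 and 15.9 TPM in Nfkbiz KO. This 15.6-fold decrease (log2 fold change -3.96, SE 0.090, edgeR adjusted p = 3.3e-11) was larger than that of any metalloproteinase gene. Bsg, which encodes the MMP inducer basigin, had a log2 fold change of -0.31 (SE 0.064, edgeR adjusted p = 0.0026) at 1129 ± 43.3 TPM in Ctrl, against 977 ± 31.2 TPM under knockout (SD, n = 3 each). Thbs2, whose product clears MMP2 from the cell surroundings, fell to 96.0 ± 3.28 TPM from 151 ± 14.2 TPM (SD, n = 3 each). Gene reads gave it a log2 fold change of -0.74 (SE 0.057, edgeR adjusted p = 6.8e-07). Thbs1 also passed, with a log2 fold change of -0.32, but was not called by limma on log2(TPM + 1) (adjusted p = 0.16). Reck, a membrane-bound MMP inhibitor, had -0.05 and did not pass (95% confidence interval -0.30 to 0.20). Furin, which removes the prodomain of many ADAMs, ADAMTSs and membrane-type MMPs, averaged 80.8 ± 4.30 TPM in Ctrl, against 94.3 ± 4.26 TPM under knockout (SD, n = 3 each). The log2 fold change of 0.12 did not pass with edgeR (adjusted p = 0.0997), while limma on log2(TPM + 1) called it (0.22, adjusted p = 0.031). Pcsk7, the other tested gene of the list that holds Furin, had a log2 fold change of -0.05 and did not pass.

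Of the matrix proteins and relatives on the lists, Vcan, which encodes the ADAMTS substrate versican, had 23.4, 28.1 and 19.5 TPM in Ctrl and 12.2, 11.2 and 12.3 TPM in Nfkbiz KO. All Nfkbiz KO samples were lower, with a log2 fold change of -1.07 (SE 0.086, edgeR adjusted p = 9.8e-07). Hapln4, the other tested gene of the same list, had a log2 fold change of -0.11 and did not pass. Bmp1, the procollagen C-proteinase that trims the other end of the procollagens handled by Adamts2 and Adamts14, fell to 37.8 ± 2.18 TPM from 52.9 ± 2.38 TPM (SD, n = 3 each, log2 fold change -0.58, SE 0.058, edgeR adjusted p = 7.4e-06). On its list of astacin and neprilysin metalloproteases, 1 of the 4 tested genes passed (25%, against 36.3% of all genes), while Mme, Ece1 and Ece2 did not. The products of ADAMTS-like genes resemble ADAMTS proteases but lack the protease domain. Of the 4 such genes tested, 3 passed as higher, where 18.0% of all genes were higher. Their log2 fold changes were 0.63 for Adamtsl4, 0.75 for Adamtsl5 and 0.81 for Thsd4, while Adamtsl3 did not pass.

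Ordered by mean TPM over all 6 samples, 10 of the 42 tested genes lay at 100 TPM or above, 12 between 10 and 100, 10 between 1 and 10 and 10 below 1. Timp1 and Timp2 led, followed by Mmp3, Mmp2 and Mmp14. In Ctrl, Mmp3 at 503 ± 50.7 TPM stood with Timp2 at 492 ± 29.6 TPM, a difference within the spread of the samples. In Nfkbiz KO, Timp2 at 591 ± 18.2 TPM was well above Mmp3 at 280 ± 20.5 TPM, which was instead close to Mmp2 at 291 ± 15.2 TPM (SD, n = 3 each). Metalloproteinase genes of low level were measured with less precision, as the widest 95% confidence interval of a log2 fold change, that of Mmp17, ran from 0.17 to 1.80, while that of Adam10 ran from -0.02 to 0.19.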

How the data were processed

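Total RNA of D4M-3A cells was sequenced from 3 Ctrl and 3 Nfkbiz KO samples, as paired reads. Reads were mapped by the authors in CLC Genomics Workbench, counting both strands together and allowing several hits per read, and deposited a table of genes per sample. The deposited read counts per gene are not normalized, and both all and uniquely mapped reads are given. The deposited TPM and RPKM were computed by the authors from exons, whereas the counts also hold reads outside exons. RPKM was not used. The submitters' processing notes name GRCm38 and the study's methods GRCm39. Since the files hold no coordinates, positions come from GENCODE for GRCm39, matched by symbol.

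Counts were tested with edgeR 4.0.16 in R 4.3.3 (TMM, quasi-likelihood test, Benjamini-Hochberg adjustment) over the 14533 genes with at least 10 reads in 3 or more samples. The SE is the size of the log2 fold change divided by the square root of F. A fold change of at least 1.5 with an adjusted p of 0.05 or less set which genes are given in full, together with all tested Timp genes, the 5 most abundant genes, Mmp2, Mmp9, Mmp14, Adam10, Adam17 and the partner genes by the same fold, with Furin, Reck, Bsg, Rhbdf1, Rhbdf2 and Vcan. Other genes named were chosen after their values were seen. The metalloproteinase genes, the role lists and the partner lists were chosen with earlier results of these data known. Overlap and exact permutation tests used log2 CPM, and for ratios the TPM ratio of each sample. Alternatives were DESeq2 1.42.0, its size factors, other filters, unique reads, limma 3.58.1 on log2(TPM + 1) and log2(TPM + 0.1), a replicate block and each sample left out. The procedure was tested on simulated counts. Promoters come from RefSeq (GRCm38.p6).

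Unique reads were 96.5% to 96.9% of all. TMM factors lay between 0.978 and 1.011. No pair of samples within a group was a duplicate, but Nfkbiz KO samples were more alike than Ctrl samples. Chi-squared per degree of freedom against counting noise was 3.43 to 5.93 for Nfkbiz KO pairs and 26.0 to 66.6 for Ctrl pairs. The reason for this difference was not tested. Same-numbered samples were not treated as pairs, since their deviations from the group means correlated at only 0.051, -0.020 and 0.028 across genes (genes are not independent). A principal component with 60.7% of the variance separated the groups, and Ctrl replicate 1 lay farthest out on the second.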

Additional observations from a re-analysis of the deposited data

How the results depend on the processing

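All 26 genes called kept their direction under every alternative run. The count of 26 was 21 on both TPM scales with limma, where Mmp2, Mmp13, Adamts7, Adam17, Adamts6 and Adamts5 were lost and Adam15 was gained, so that 9 in place of 14 were called lower and 12 higher as before. The cause was not tested. With samples left out in turn, 23 to 26 genes were called, and without Ctrl replicate 1 Mmp12 and Adamts6 were lost. Past the thresholds of the study, the count of 1 became 6 with no cut-off on the difference, 14 at a fold change of at least 1.5 with an adjusted p of 0.1 or less, and 1 to 2 with samples left out. The 13 genes at a fold change of at least 1.5 were 12 to 15 and the 14 partner genes called were 12 to 14 with samples left out. With limma, the 13 became 10 on log2(TPM + 1) and 12 on log2(TPM + 0.1), and the 14 became 12 on both scales. With the replicate number as a block, 26 genes were called, 11 higher and 15 lower, with Timp2 lost and Mmp28 gained, although the numbers do not pair the samples. Among 476 alternative values of 34 single genes, 452 stayed on the same side of the threshold, 22 lost the call (Mmp2, Mmp12, Timp2, Adam17, Rhbdf1 and Rhbdf2) and 2 gained it (Furin). The sign turned only in Timp1 and Reck, which were never called. The median log2 fold change of all genes moved from -0.02 to 0.08 on the log2(TPM + 0.1) scale. Fits on exon reads were not run, as the tables give none. Genes with few reads, such as Adam23, Adamts8 and Mmp15, are limited by depth.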
